A study of Rattus norvegicus with 72 samples.

Results

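The hypothalamus was compared with the cortex of female rat pups on postnatal day 9 (P9) in 12 RNA libraries, out of 48 RNA libraries and 72 samples in the study. The members are all RNA libraries labelled maternal at P9. There were 3 wild-type (WT) and 3 deletion libraries from hypothalamus, and 3 WT and 3 deletion libraries from cortex. Deletion pups had inherited a UBE3A deletion from the mother, and WT pups were their litter-matched controls, so every pup came from a litter of the kind labelled maternal. Neither the extent of the deletion nor the strain of rat is given in the sources used here. The labels list the replicates as separate samples without naming the pup of each, so a p-value here measures only how these samples spread, which may be technical.

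The hypothalamus is a small part of the forebrain that regulates hormone release, feeding, body temperature and sleep, and many of its neurons make secreted neuropeptides. The cortex is a layered sheet made mostly of glutamatergic projection neurons with a minority of GABAergic interneurons. Both were still maturing at the ages studied, when synapses form and glia multiply. Ube3a encodes an E3 ubiquitin ligase that neurons express mainly from the maternal allele, while a long noncoding transcript silences the paternal allele.

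Counts were deposited per RefSeq accession, here called a row, for 184444 rows, of which 168377 carry the prefix of mRNAs (NM_) and 16067 that of noncoding RNAs (NR_). None of them (0 rows) matched a transcript of the RefSeq rat table used (assembly GRCr8, 114702 accessions), so rows are given by identifier without a gene name, coordinates or sequence. For the same reason the tissue labels could not be checked against marker genes, and the deleted gene could not be checked in the deletion libraries. Which species' transcripts the identifiers name was not established here. Several rows can stand for the same gene, so counts of rows are not counts of genes. All values are from bulk tissue, in which fewer cells of a type and less RNA per cell cannot be told apart.

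Depth differed between the tissues. Totals ran from 218288 to 531265 counts in hypothalamus and from 1943980 to 2498255 in cortex. A single row, NR_137294, took 15.3% to 19.4% of the counts in the 6 hypothalamus libraries (mean 18.4%) and was left out of every comparison. In cortex it took 0.574% in deletion replicate 2 and 0.000480% to 0.0311% in the other 5 libraries. The hypothalamus libraries belong to the name series JL2 and the cortex libraries to JL6, so among the 12 libraries tissue, series and depth cannot be told apart. In a principal component analysis the first component (38.7% of the variance) separated the tissues, and the second (15.4%) set hypothalamus deletion replicate 1 apart at -66.8, where the other 11 libraries lay between -7.10 and 37.1. Thus 2 libraries stood apart in these measures, cortex deletion replicate 2 and hypothalamus deletion replicate 1, the library with the lowest total (218288 counts). Results that rest on these 2 libraries are also given without them.

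Further libraries, none shared with the 12, gave a second look at the same contrast. The libraries labelled maternal at P2 (6 and 6, series JL2 and JL6) have the same confounding of tissue with series. In the libraries labelled paternal (12 and 12 over both ages) the hypothalamus series was again JL2 and the cortex series was JL7. Tissue and series therefore cannot be told apart there either. Depth was closer, at 437650 to 1165651 counts in hypothalamus and 735159 to 1102194 in cortex. The age labels of the cortex libraries labelled paternal could not be checked, and their noncoding share went the other way with labelled age. Their noncoding rows held 9.52% ± 0.767 of counts at labelled P9 and 6.51% ± 0.350 at labelled P2 (SD, n = 6 each), whereas in cortex labelled maternal the share was 4.95% ± 0.512 at P9 and 6.53% ± 0.261 at P2 (NR_137294 left out). The shares at P2 were close to each other, and the cause of the difference at P9 was not tested. The comparison labelled paternal is therefore given mainly over both ages together, a value that does not depend on which cortex libraries were P2.

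At P9, hypothalamus and cortex differed in a large share of the rows that passed the filter, in nearly equal numbers each way. The larger differences were mostly higher in hypothalamus. Of 7289 rows tested, 3152 were called (43.2%), 1579 higher in hypothalamus (21.7%) and 1573 lower (21.6%), by edgeR's quasi-likelihood test at a Benjamini-Hochberg adjusted p under 0.05. The median size of a called difference was 0.94 on the log2 scale, with quartiles of 0.61 and 1.49. Among called rows with more than a 2-fold difference, 993 were higher and 467 lower in hypothalamus, a share of 68.0% higher. Beyond 4-fold there were 297 higher and 57 lower rows, or 83.9% higher. Beyond 8-fold there were 76 and 19. Without the 2 libraries that stood apart, 2889 of 7888 rows were called, 1311 higher and 1578 lower.

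Separation of all libraries was less common than a call. In 577 rows (7.92%) all 6 hypothalamus libraries lay above all 6 cortex libraries, and in 846 rows (11.6%) all 6 lay below. Of these, 571 and 837 were also called. More rows were thus cleanly separated in the lower than in the higher direction, the opposite order to that of the large differences. The spread between replicates was larger in hypothalamus, where the biological coefficient of variation of rows with a mean of at least 50 CPM (a count relative to the library's total after TMM scaling) was 16.6%, than in cortex, where it was 11.3%. After thinning all libraries to the same total of 175988 counts, the values were 16.7% and 10.5%, so the order was as large at equal depth.

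Direction varied with the level of the row. Tested rows were ranked by mean level and cut into 4 classes of equal size. In the lowest class (3.12 to 11.7 CPM over the 12 libraries), 397 were called higher in hypothalamus and 119 lower, with a median size of 1.83 on the log2 scale. In the second class (11.7 to 29.5 CPM) the counts were 444 and 225, and in the third (29.5 to 93.7 CPM) 408 and 445. In the highest class (93.8 to 43986 CPM) 330 were higher and 784 lower, with a median size of 0.57. At full depth, low rows were thus called mostly higher in hypothalamus by large folds, and abundant rows mostly lower by small ones.

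**Figure D1:**
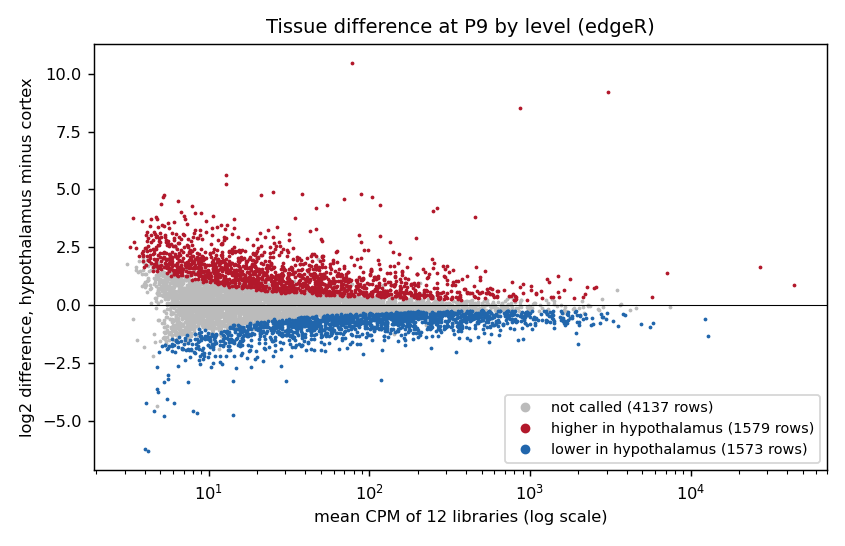
Log2 difference between hypothalamus and cortex at P9 (vertical axis) against mean CPM over the 12 libraries on a log scale (horizontal axis), 1 point for each of the 7289 tested rows. Red points are the 1579 rows called higher in hypothalamus, blue points the 1573 called lower, and gray points were not called. The largest positive differences reach 10.45, and blue points are densest at small differences of abundant rows.

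Part of this pattern changed at equal depth. With the 12 libraries thinned to the same total, 3109 rows could be tested and 1245 were called, 680 higher in hypothalamus and 565 lower. In the highest class of level, where all 1822 rows were tested, the thinned counts were 371 higher and 427 lower. This is a much smaller imbalance than the one at full depth. In the third class only 1281 of 1822 rows passed the filter, with 305 higher and 136 lower, so its split is not over the same rows as at full depth. The lower classes could not be examined at equal depth, since 0 rows of the lowest class and 6 of the second passed the filter. The excess of large differences in the higher direction was as marked at equal depth. Beyond 2-fold there were 326 higher and 123 lower rows (72.6% higher) and beyond 4-fold 68 and 4 (94.4% higher). With no filter on low counts, the split of all calls at full depth was 1052 higher and 2420 lower, so the equal split in the main result depends on the filter.

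Noncoding rows leaned toward hypothalamus. Of 599 noncoding rows tested, 187 were called higher (31.2%) and 74 lower (12.4%), with a median log2 difference of 0.44 over all of them. Of 6690 mRNA rows, 20.8% were called higher and 22.4% lower, with a median of -0.03. Noncoding rows made up 68 of the 297 rows that were more than 4-fold higher and 7 of the 57 that were more than 4-fold lower. At equal depth 67 of 146 noncoding rows were called higher (45.9%) and 27 lower (18.5%), where of 2963 mRNA rows 20.7% were called higher and 18.2% lower. The larger share of higher calls was thus seen at both depths, and the smaller share of lower calls was not seen at equal depth. Noncoding RNAs with this prefix include long noncoding RNAs, small nucleolar RNAs and other structured RNAs, and the rRNA-depleted libraries did not select for a poly(A) tail.

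In other libraries the lean of noncoding rows was not uniform. In libraries labelled maternal at P2, 34.3% of noncoding rows were called higher in hypothalamus and 16.3% lower, beside 25.7% and 27.4% of mRNA rows. Over both ages of the libraries labelled paternal the shares were 22.5% and 22.8% of noncoding rows and 29.3% and 25.7% of mRNA rows. There the share of higher calls was smaller among noncoding than among mRNA rows. At labelled P9 alone 16.8% of noncoding rows were higher and 42.4% lower, beside 29.7% and 23.9% of mRNA rows, the reverse of the order in the libraries labelled maternal. With the cortex libraries labelled P2 in their place the shares were 25.4% and 16.9% of noncoding rows and 24.1% and 23.0% of mRNA rows. That fit had tissue as its only term, without genotype. Whether the maternal and paternal labels differ in this was not tested.

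The composition of whole libraries also differed between the tissues. The share of counts in noncoding rows was 6.26% ± 0.489 in hypothalamus and 4.95% ± 0.512 in cortex (SD, n = 6 each), and the ranges of 5.70% to 6.90% and 4.49% to 5.76% overlapped slightly. The exact two-sided permutation test over libraries gave p = 0.00433, adjusted over 5 such measures to 0.00541. In libraries labelled paternal the share was 6.83% ± 0.524 in hypothalamus and 9.52% ± 0.767 in cortex at labelled P9, the opposite order, and 7.70% ± 0.325 and 6.51% ± 0.350 at labelled P2. Counts were concentrated more at the top in hypothalamus, where the 10 most abundant rows held 15.4% ± 0.433 of counts and in cortex 11.2% ± 0.550, without overlap (exact permutation p = 0.00216, the smallest that 6 against 6 libraries can give, adjusted 0.00361). The single most abundant row held 5.69% ± 0.310 and 2.99% ± 0.190, again without overlap and with the same p. The heavier top was not seen in all other libraries. The 10 most abundant rows held 14.8% ± 1.77 in hypothalamus and 13.8% ± 1.60 in cortex labelled paternal P9, with ranges of 13.2% to 17.9% and 12.1% to 16.2%, and 12.1% ± 1.14 and 13.9% ± 1.002 at labelled P2, where cortex was higher. At P2 labelled maternal they held 13.6% ± 1.26 and 9.94% ± 0.237.

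At equal depth more rows were detected in hypothalamus than in cortex. With 175988 counts per library, 9838 ± 351 rows had at least 1 count in hypothalamus and 8732 ± 354 in cortex (SD, n = 6 each), with ranges of 9524 to 10287 and 8401 to 9203 (exact permutation p = 0.00216, adjusted 0.00361). The effective number of rows, a diversity measure that weights rows by their share of counts, went the other way, at 1536 ± 71.3 in hypothalamus and 1663 ± 30.9 in cortex (exact permutation p = 0.00866, also when adjusted). Its ranges of 1476 to 1655 and 1628 to 1696 overlapped. The hypothalamus libraries labelled maternal at P9 thus combined a heavier top with a longer tail of rarely counted rows.

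**Figure D2:**
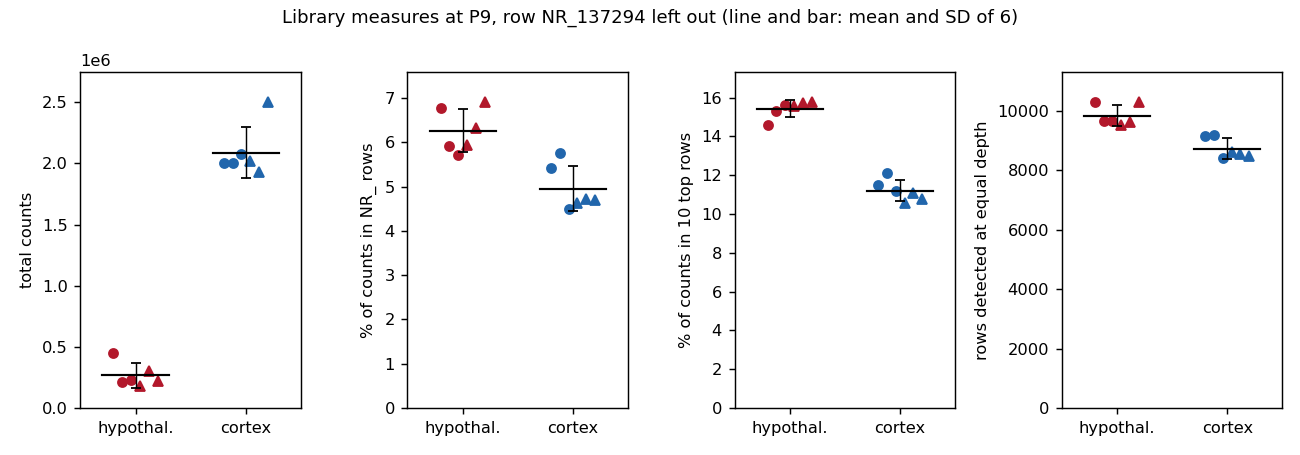
Total counts, share of counts in noncoding rows, share in the 10 most abundant rows, and rows detected after thinning to 175988 counts (vertical axes), for the 6 hypothalamus (red) and 6 cortex (blue) libraries at P9, with row NR_137294 left out. Circles are WT and triangles deletion libraries, and lines and bars are the mean and SD. Hypothalamus libraries had 175988 to 450065 counts and cortex libraries 1932830 to 2498243, and the last 2 measures did not overlap between tissues.

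The row with the largest fitted difference at full depth, NM_001193578 (10.45 on the log2 scale), had no counts in cortex. Its level was 122, 166 and 148 CPM in the WT and 148, 114 and 237 CPM in the deletion libraries of hypothalamus. The 6 cortex libraries held 0 counts of it among 12526732. The hypothalamus libraries held 238 counts of it among 1592013, a pooled level of 149 CPM. This is 624 times the limit that a cortex count of 0 allows (3 counts over the group, or 0.239 CPM). The counting interval of the ratio, which also covers the error of the hypothalamus counts, begins at 504, so the level was at least 504-fold higher in hypothalamus, for counting error only. In edgeR the quasi-likelihood test gave an adjusted p of 2.56e-13. It was at 0 in every cortex library labelled maternal at P2 and every one labelled paternal, while the hypothalamus libraries had 95.6 to 161 CPM and 49.6 to 113 CPM. No other called row had hypothalamus counts with 0 counts in all 6 cortex libraries (1 row in all), and 2 rows called lower had 0 counts in all 6 hypothalamus libraries. At equal depth the fitted log2 difference of NM_001193578 was 7.90 and that of NM_001190452 was 9.60, so the order of these rows was not the same.

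NM_001190452 was among the most abundant of the rows that differed widely. It reached 4825, 6307 and 6048 CPM in WT and 6219, 6069 and 7062 CPM in deletion libraries of hypothalamus. In cortex the WT libraries had 1.55, 9.90 and 1.01 CPM, and the deletion libraries 0, 76.3 and 0.416 CPM. The tissues did not overlap, but cortex deletion replicate 2 stood well above the other cortex libraries. The log2 difference was 9.23 (SE 0.908, 95% interval 7.14 to 11.31), at adjusted p = 7.09e-05 in edgeR, and it was 12.35 without cortex deletion replicate 2. From pooled counts (9400 in hypothalamus, 166 in cortex) the level was 446-fold higher, with a counting interval of 382 to 523. At P2 labelled maternal the log2 difference was 11.69, and over both ages labelled paternal 9.01.

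The left-out row NR_137294 was high in the same cortex library. Cortex deletion replicate 2 held 11150 counts of NR_137294, and the other 5 cortex libraries 12 to 622. Per 1000 counts of NR_137294, NM_001190452 had 25.3 to 30.8 counts in the 6 hypothalamus libraries and 12.6 in cortex deletion replicate 2. Cortex WT replicate 2 was second among cortex libraries for both rows, with 622 counts of NR_137294 and 19 of NM_001190452. That is 30.5 per 1000, within the hypothalamus range. The remaining cortex libraries held 12 to 146 counts of NR_137294 and 0 to 3 of NM_001190452. Their ratios, from these few counts, ran from 0 to 83.3 per 1000, and none lay within the hypothalamus range. NM_001193578, with 0.496 to 1.03 counts per 1000 of NR_137294 in hypothalamus, had 0 counts in cortex deletion replicate 2. In this library 2 rows were at least 5-fold above the next cortex library, where each of the other 5 cortex libraries had 0 such rows. Both rows were called for tissue, as were 43.2% of all rows tested. Whether hypothalamic RNA or another source gave these counts was not tested.

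The 2 rows named as lower in hypothalamus rested on few counts in the shallower libraries. NM_212452 had 4, 1 and 2 counts in the WT and 0, 0 and 0 counts in the deletion libraries of hypothalamus, a mean of 3.68 ± 4.30 CPM (SD, n = 6). In cortex the levels were 32.5, 31.3 and 23.8 CPM in WT and 23.3, 18.4 and 19.6 CPM in deletion libraries. Every cortex library lay above every hypothalamus library. Pooled over libraries, the level in cortex was 5.39-fold higher, with a counting interval of 2.58 to 13.5. The log2 difference averaged over genotypes was -4.72 (SE 0.671), at adjusted p = 9.01e-06 in edgeR. This is a fitted value that depends on the prior count because the deletion group of hypothalamus is at 0. It was -2.48 (adjusted p = 0.000159) with tissue as the only term.

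NM_001091634 had the same order of tissues. It had 2, 0 and 1 counts in the WT and 0 counts in each deletion library of hypothalamus. In cortex its level was 12.4, 14.1 and 17.2 CPM in WT and 15.2, 18.4 and 15.4 CPM in deletion libraries, without overlap. The pooled cortex level was 7.88-fold higher, with a counting interval of 2.65 to 38.6. The log2 difference was -4.66 (SE 0.805), at adjusted p = 8.19e-05 in edgeR, and with tissue as the only term it was -2.97. Over both ages labelled paternal NM_212452 had a log2 difference of -3.07 and NM_001091634 one of -2.73.

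**Figure D3:**
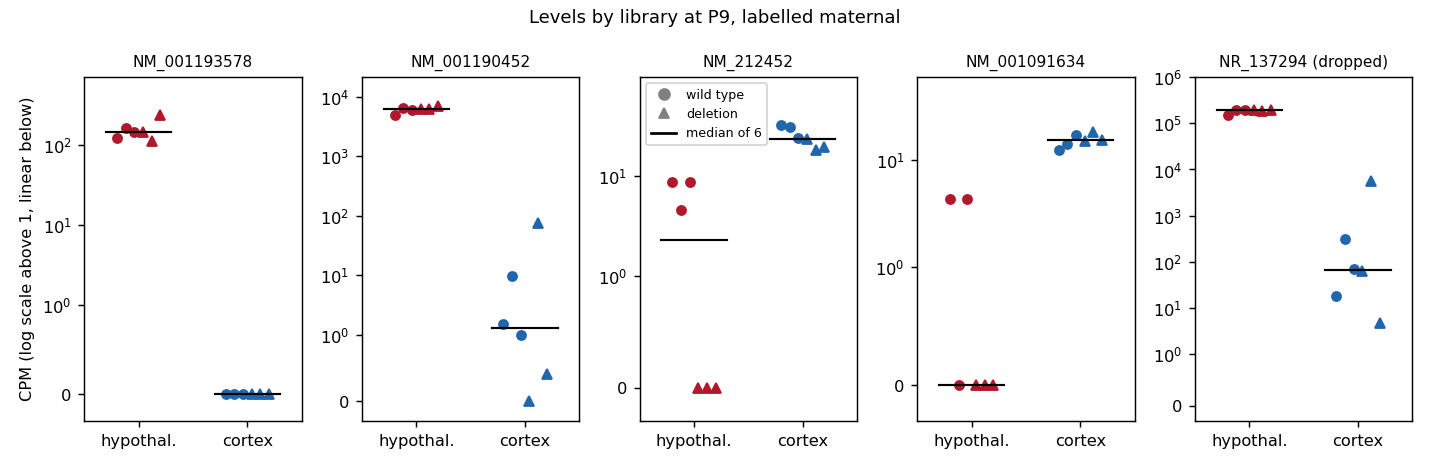
Level in CPM (vertical axes, log scale above 1 and linear below) of 2 rows higher in hypothalamus, 2 rows lower in hypothalamus and the left-out row NR_137294, in the 6 hypothalamus (red) and 6 cortex (blue) libraries at P9. Circles are WT and triangles deletion libraries, and the line is the median of 6. NM_001193578 is at 0 in all cortex libraries, and cortex deletion replicate 2 is the highest cortex library for NM_001190452 (76.3 CPM) and for NR_137294.

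Among rows whose libraries did not overlap and whose mean was at least 10 CPM in the higher tissue, the 12 with the largest positive differences ran from 4.30 to 10.45 on the log2 scale, and 4 of them were noncoding. All 12 were also called higher in hypothalamus at P2 labelled maternal and over both ages labelled paternal. Over all rows tested there, 1907 of 7194 and 2111 of 7368 were called higher, and the 12 were chosen for their size. The 12 with the largest negative differences ran from -4.72 to -2.52, and 2 were noncoding. Of these, all 10 tested at P2 and all 11 tested in the libraries labelled paternal were called lower there too. Over all rows tested there, 1900 of 7194 and 1871 of 7368 were called lower. In 4 of the lower rows and 1 of the higher rows a genotype group of a tissue was at 0, so their order by fitted difference depends on the prior count.

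Over all rows, the tissue difference at P9 was shared most with P2 of the same label. Across 6689 rows tested in both, the differences had r = 0.81 (Spearman's rho 0.77), a description across rows, which are not independent. Of 3807 rows called at P2 (52.9%), 3586 were also tested at P9. There were 2198 rows called in the same direction at both ages, which is 74.2% of those called at P9 and 61.3% of those called at P2, and 39 called in opposite directions. These 24 libraries share a name series within each tissue.

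The libraries labelled paternal, with another cortex series and closer depths, gave a looser match. Over both ages they had 3982 called rows (54%), and r was 0.66 (rho 0.62) across 6724 rows. Called in the same direction were 1937 rows, or 64.9% of those called here and 52.4% of those called there, and in opposite directions 143. With the libraries labelled paternal at P9 alone (3611 called, 54.1%), r was 0.43 over 6276 rows, with 1361 rows in the same and 369 in opposite directions. With the cortex libraries labelled P2 set against the same hypothalamus libraries (3069 called, 46.7%), r was 0.73 over 6376 rows, with 1810 in the same and 47 in opposite directions. The tissue difference of the libraries labelled maternal at P9 thus resembled more closely the one measured with cortex libraries labelled paternal P2 than with those labelled paternal P9. The fit with cortex libraries labelled P2 had tissue as its only term, and the others had a mean for each group. How much this changed r was not tested.

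A common set of rows was called in all 3 comparisons, labelled maternal P9, labelled maternal P2 and labelled paternal over both ages. It held 775 rows higher in hypothalamus, 60 of them noncoding, and 842 lower, 37 of them noncoding, out of 6502 tested in all 3, of which 539 were noncoding. Of the rows tested in all 3, 1389 were called higher and 1520 lower at P9 labelled maternal. The common rows made up 55.8% and 55.4% of those calls.

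**Figure D4:**
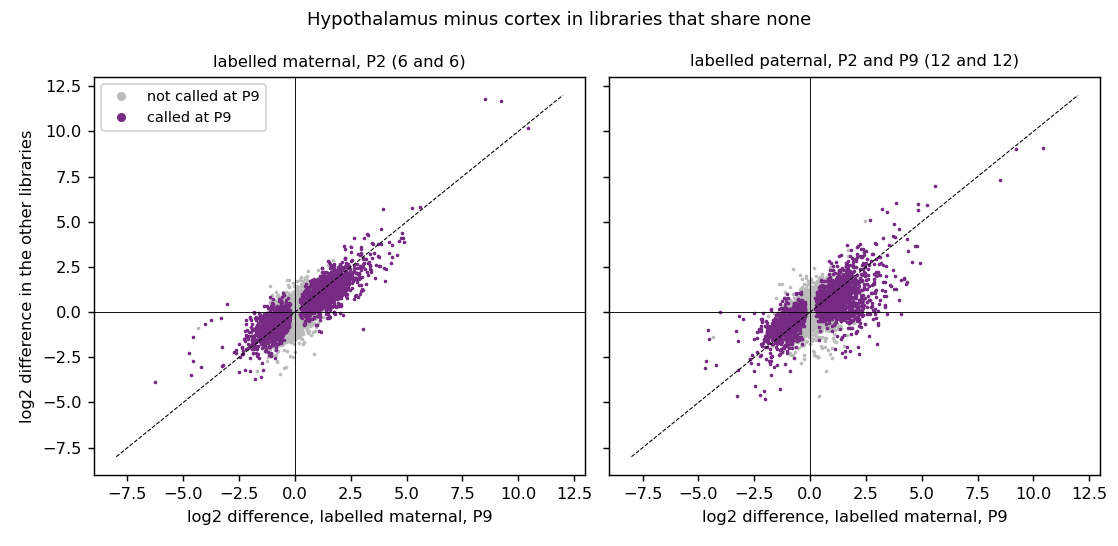
Log2 difference between hypothalamus and cortex in libraries labelled maternal at P2 (left, 6689 rows) and labelled paternal over both ages (right, 6724 rows) on the vertical axes, against the difference in libraries labelled maternal at P9 on the horizontal axes. Purple points were called at P9, gray points were not, and the dashed line marks equality. Points follow the line more closely on the left (r = 0.81) than on the right (r = 0.66).

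Both genotypes showed the tissue difference. With WT libraries only, 1458 of 6421 rows were called (22.7%), and with deletion libraries only, 1962 of 6097 (32.2%). Across 5900 rows tested in both, the differences had r = 0.77, and all 979 rows called in both had the same direction. The difference of the tissue effect between genotypes, tested as an interaction, was called in 0 of 7289 rows (0%) by edgeR's quasi-likelihood test and in 0 rows by DESeq2. An unadjusted p under 0.05 was found in 486 rows, where an even spread of p-values gives 364, and the lowest adjusted p was 0.725. Leaving out cortex WT replicate 3 gave 37 called rows and leaving out hypothalamus WT replicate 3 gave 9, so the count of 0 rests on these libraries. NM_212452, whose hypothalamic counts were 4, 1 and 2 in WT and 0 in deletion libraries, had an interaction of -5.64 (SE 2.08, adjusted p = 0.725 by the same edgeR test).

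The tissue difference changed between P2 and P9 in a small share of rows. In the 24 libraries labelled maternal, 307 of 8035 rows were called for an interaction of tissue with age (3.82%) by edgeR's quasi-likelihood test. The difference between hypothalamus and cortex moved up in 133 rows (1.66%) and down in 174 (2.17%). In 147 of the called rows the fitted difference had opposite signs at the 2 ages, and 36 of these were called at each age. In 64 rows it had the same sign and was larger at P9, and in 96 the same sign and smaller. Of 739 noncoding rows tested, 28 were called (3.79%), close to the share over all rows. At equal depth 118 of the 3604 rows tested were called.

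The 2 rows with the smallest p in the downward direction turned from hypothalamus-high to cortex-high. NM_027629 had 1121 to 1778 CPM in hypothalamus and 743 to 955 CPM in cortex at P2. At P9 it had 1504 to 1870 CPM in hypothalamus and 2434 to 3109 CPM in cortex (6 libraries each). At each age the tissues did not overlap, and most of the change lay in cortex. The log2 difference was 0.74 at P2 and -0.67 at P9, and the interaction was -1.41 (SE 0.136), at adjusted p = 1.1e-08 in edgeR. NM_170597 had 277 to 515 CPM in hypothalamus and 139 to 216 CPM in cortex at P2, and 395 to 548 and 670 to 810 CPM at P9, again without overlap at either age. Its interaction was -1.59 (SE 0.174, adjusted p = 2.45e-07).

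The 2 upward rows turned the other way. NM_133816 had a mean of 114 ± 23.0 CPM in hypothalamus and 184 ± 13.8 CPM in cortex at P2, and of 175 ± 27.4 and 135 ± 11.5 CPM at P9 (SD, n = 6 each). At P2 the tissues did not overlap. At P9 they did, as hypothalamus WT replicate 3 had 122 CPM and the cortex libraries ran from 120 to 151 CPM. The interaction was 1.10 (SE 0.171), at adjusted p = 0.000106 in edgeR. NM_001005425 had 139 ± 21.0 CPM in cortex at P2 and 33.4 ± 8.63 CPM at P9, while hypothalamus had 79.5 ± 26.6 and 62.6 ± 10.05 CPM (SD, n = 6 each). Its interaction was 1.71 (SE 0.269, adjusted p = 0.000112), and its tissues overlapped at P2 and not at P9.

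**Figure D5:**
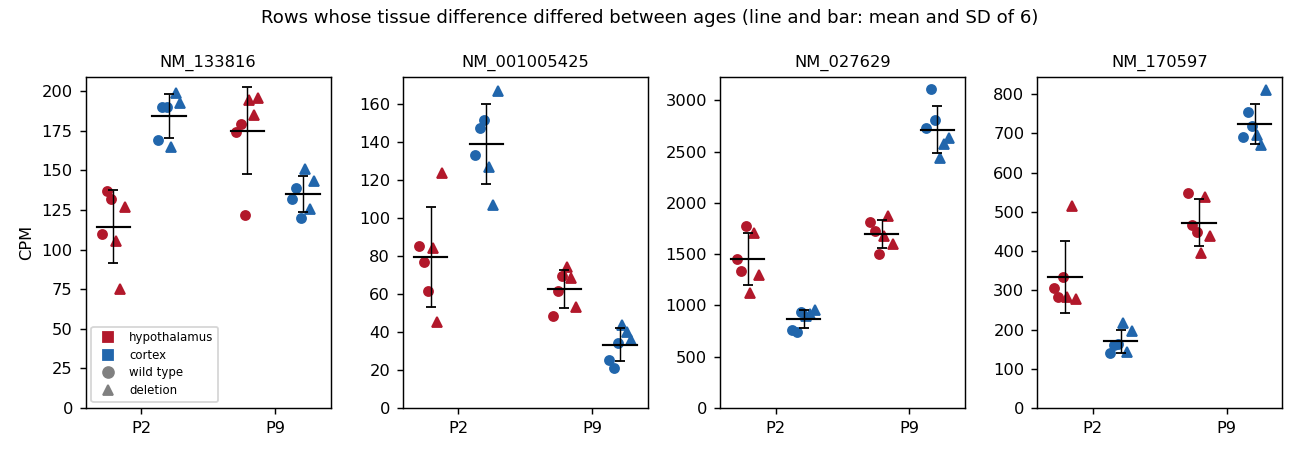
Level in CPM (vertical axes) of the 4 rows named for a changed tissue difference, at P2 and P9, in hypothalamus (red) and cortex (blue) libraries labelled maternal. Circles are WT and triangles deletion libraries, and lines and bars are the mean and SD of 6. In NM_027629 and NM_170597 cortex lies below hypothalamus at P2 and above it at P9, and in NM_133816 and NM_001005425 the order of the means is the reverse.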

How the data were processed

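Libraries were directional and rRNA-depleted, per the labels' protocols. The submitters' processing notes list STAR, rn6 and Rnor_6.0. No source used here gives the read counter, the annotation counted against or the strand setting. The deposited values are raw whole-number counts per RefSeq accession, in a table for each tissue, and the tables were joined by row. Deposited methylation tables were not used here. All per-sample columns were mapped (0 left unmapped).

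Row NR_137294 was left out. In R 4.3.3, the 12 libraries were fitted in edgeR 4.0.16 (with limma 3.58.1) with TMM scaling, the filterByExpr filter and a mean for each tissue and genotype, leaving 8 residual degrees of freedom. The tested rows held 97.5% to 98.6% of each library's counts, and the common biological coefficient of variation was 13.9%. The tissue contrast was averaged over genotypes and tested by the robust quasi-likelihood F-test, two-sided. The age interaction used all 24 libraries labelled maternal. Thinning drew counts without replacement (seed 20). DESeq2 1.42.0, other scalings, filters and subsets of libraries were alternatives. Whole-library measures were compared by exact permutation tests. Counting intervals are at 95%. The scripts were tested on simulated data.

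The 12 pairs of replicates held no identical counts (0 pairs), and their lowest chi-square per degree of freedom was 1.61. The highest values were those of cortex WT replicate 3, at 9.20 against replicate 2 and 6.71 against replicate 1, which had 2.86 between them. Named rows are the 2 per direction with the largest log2 difference among called rows without overlap and with at least 10 CPM in the higher tissue, and, for age, the 2 per direction with the smallest p. Gene lists (29 lists, 734 symbols, 718 in the RefSeq table) had 0 accessions counted and were not tested. Members, lists and tests were chosen with earlier results of these data known.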

Additional observations from a re-analysis of the deposited data

Results flagged for a closer look

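Among 38 groups of 6 libraries checked for a library far from the rest, 6 were marked by Dixon's ratio, where chance gives about 1.9. The total without NR_137294 was 2498243 counts in cortex deletion replicate 3 and 1932830 to 2078560 in the other cortex libraries. The share of NR_137294 was 0.574% in cortex deletion replicate 2 and at most 0.0311% in the others, and it was 15.3% in hypothalamus WT replicate 1, the deepest hypothalamus library, and 18.1% to 19.4% in the others. NM_001190452 stood at 76.3 CPM in cortex deletion replicate 2 and at 0 to 9.90 CPM in the other cortex libraries. NM_133816 stood at 122 CPM in hypothalamus WT replicate 3 at P9 and at 174 to 195 CPM in the others. NM_170597 stood at 515 CPM in hypothalamus deletion replicate 2 at P2 and at 277 to 334 CPM in the others.

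The tissue difference at P9 minus that at P2 was 1.10 for NM_133816, 1.71 for NM_001005425, -1.41 for NM_027629 and -1.59 for NM_170597 on the log2 scale, each called as an interaction by edgeR's quasi-likelihood test.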

How the results depend on the processing

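The count of 3152 rows called for tissue was 1458 with WT libraries only, 1962 with deletion libraries only and 1245 after thinning, where fewer libraries or fewer rows entered. The totals of the other 26 alternatives stayed within 1.5 times, including DESeq2 (3108) and library totals only (3091, 55.9% higher). Some of the 26 compared other libraries, such as those labelled paternal at P9 (3611), and the fit with no filter gave 3472 (30.3% higher). A similar total therefore does not mean the same rows or directions. The version without the 2 libraries that stood apart (2889) was added after seeing the data, as was the comparison with cortex labelled paternal P2. Leaving out each library in turn gave 2418 to 3307, with 39.6% to 52.9% of calls higher and 5123 to 9100 rows passing the filter. The split went with the tissue of the library left out. Without a hypothalamus library 39.6% to 44.4% of calls were higher, with 8829 to 9100 rows tested. Without a cortex library 51.4% to 52.9% were higher, with 5123 to 5137 rows tested. The 4 rows named for tissue kept direction and call wherever they were tested, as did the 4 named for age. NM_212452 and NM_001091634 did not pass the filter after thinning, so neither was tested at equal depth, and NM_001091634 was also not tested when a cortex library was left out. DESeq2 gave NM_001190452 no adjusted p.

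The genotype interaction was called in 4 rows with no filter on low counts, and in 0 to 37 when each library was left out. The age interaction, called in 307 of 8035 rows, was called in 118 of 3604 after thinning and 539 of 8035 by DESeq2. With no filter it was called in 463 of 35948 rows (70 up, 393 down), and in 226 to 376 when each library was left out. The cause was not tested.

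Libraries of both tissues share the last digits of their names. With these as a replicate block 2969 rows were called. Deviations of the 6 pairs correlated at -0.04 to 0.29, with 4 over 0.1, and 4 of the 6 were closest to their own number, a hint of pairing in the data. No label ties the numbers to a pup and not every pair was over 0.1, so the fit without the block was kept. Counts summed per gene symbol were not run, since no row could be paired with a symbol. Hypothalamus libraries had 175988 to 450065 counts, so rows lower there rest on few counts and the size of their difference is poorly fixed.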
